A study of Mus musculus with 6 samples.

Results

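The genes described here are 33 genes of red cells: the adult globins, the enzymes of heme synthesis, and the membrane proteins, surface antigens, enzymes and regulators of erythroid cells. They were chosen by symbol, and 32 of the 33 matched an identifier among the 48709 mouse genes of the count table. No identifier was matched for the remaining symbol, Ahsp, and no value is given for it. All 32 passed the filter on low counts.

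RNA-seq of total RNA was carried out on cochleae, the hearing organs of the inner ear, from 3 wild-type mice (Hgf+/+) and 3 littermates homozygous for an engineered Hgf allele (Hgfdel10Neo/del10Neo, here called knock-in). The allele lacks 10 bases of Hgf intron 5 and, by its name in the labels, carries a Neo cassette, so any effect of the deletion and of the cassette cannot be told apart. The mice were 5 to 27 weeks old, with no age given for the single animals. Libraries were made after depletion of ribosomal RNA and with random primers.

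Red cells form in the bone marrow from nucleated precursors that divide, fill with hemoglobin and lose their nucleus. Hemoglobin joins alpha and beta globin chains to heme, which is built in steps that begin and end in mitochondria and need iron taken up through the transferrin receptor. The transcription factors GATA1, KLF1 and TAL1 switch on the globins, the heme enzymes and the membrane skeleton together. A dissected cochlea holds blood vessels and lies in the bony otic capsule, so blood and marrow can both be in the sample. In such bulk samples, fewer cells of a type and less RNA per cell cannot be told apart.

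Libraries held 24005234 to 42312291 gene counts, and all 10 cochlear marker genes on a list of hair cell, tectorial membrane and other cochlear genes were detected in each of the 6. In CPM, the standard measure of a gene's counts relative to the scaled total of its library, Hgf was at 15.4, 16.3 and 15.2 in wild-type replicates 1, 2 and 3 and at 9.24, 10.4 and 10.5 in knock-in replicates 1, 2 and 3. Neo had 5, 8 and 10 counts in wild-type and 71, 199 and 5 in knock-in. The last of these libraries, labelled knock-in replicate 3, thus showed no more Neo than wild-type, and main counts are given with and without it. Its Hgf lay below every wild-type library, but Hgf was not called between the groups (log2 fold change -0.63, edgeR quasi-likelihood test, adjusted p = 0.246). Xist, made from the inactive X, reached 854 CPM in wild-type replicate 2 and 758 CPM in knock-in replicate 3 and stayed below 1 CPM in the other 4 libraries.

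The alpha globin genes Hba-a1 and Hba-a2 lie on chromosome 11 (32283511 to 32284465 and 32296489 to 32297298, forward strand of GRCm38). The beta globin genes Hbb-bs and Hbb-bt lie on chromosome 7 (103826534 to 103828096 and 103812524 to 103813996, reverse strand). Each pair arose by duplication, and the coding sequences of a pair, without the stop codon, differ at a single base in the GENCODE M21 transcripts. The stretches around that base are shown because, within the coding sequence, only reads over it can tell the copies apart. Capitals mark the differing base, with positions counted from 1 at the A of the start codon (C381T for Hba-a1 against Hba-a2 and C417T for Hbb-bs against Hbb-bt).
Hba-a1: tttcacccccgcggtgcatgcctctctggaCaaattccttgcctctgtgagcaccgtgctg
Hba-a2: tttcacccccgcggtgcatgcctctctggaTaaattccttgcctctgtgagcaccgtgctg
Hbb-bs: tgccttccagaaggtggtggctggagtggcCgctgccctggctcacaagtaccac
Hbb-bt: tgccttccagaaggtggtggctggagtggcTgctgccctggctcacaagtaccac
Of the stretches of 93 bases, the read length, in the coding sequence, 86.2% were the same in both alpha genes and 92.8% in both beta genes. Over the whole transcripts, UTRs included, 58.2% of such stretches of Hba-a1 occurred in Hba-a2 and 76.4% of those of Hba-a2 in Hba-a1. For the beta genes, 63.1% of those of Hbb-bs occurred in Hbb-bt and 55.3% of those of Hbb-bt in Hbb-bs. The sources do not say how shared reads were counted, so the value of each single copy is uncertain, and sums over a pair are given beside them.

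The start regions of erythroid genes are known for GATA motifs, bound by GATA1, and for CACCC boxes, bound by KLF1. The 120 bases before the RefSeq start (GRCm38.p6, read on the strand of the gene) are shown for 7 members. Hba-a2 is shown as a globin gene, and the other 6 were picked because their window holds the GATA motif. Members on chromosomes 8 and 18 were not considered for this choice. Windows of which more than 30 bases lie in exons of the gene are left out. Whether these motifs bear on the levels in the libraries was not tested. Capitals mark 4 motifs on either strand. The GATA motif is spelled AGATAA or TGATAA. The CACCC box was searched as CCACACCC, the TATA box as TATAAA and the CCAAT box by those letters.
Hba-a2, chr11:32296372-32296491, forward: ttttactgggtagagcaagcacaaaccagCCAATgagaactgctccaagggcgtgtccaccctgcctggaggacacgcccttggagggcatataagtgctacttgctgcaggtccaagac
Cpox, chr16:58670088-58670207, forward: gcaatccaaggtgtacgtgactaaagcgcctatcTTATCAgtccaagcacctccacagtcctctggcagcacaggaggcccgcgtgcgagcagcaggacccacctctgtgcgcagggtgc
Rhag, chr17:40811029-40811148, forward: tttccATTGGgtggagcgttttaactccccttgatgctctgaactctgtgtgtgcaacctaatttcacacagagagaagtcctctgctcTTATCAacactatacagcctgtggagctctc
Rhd, chr4:134864416-134864535, forward: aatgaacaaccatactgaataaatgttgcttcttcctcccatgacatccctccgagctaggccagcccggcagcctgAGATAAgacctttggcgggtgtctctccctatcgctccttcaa
Kel, chr6:41704326-41704445, reverse: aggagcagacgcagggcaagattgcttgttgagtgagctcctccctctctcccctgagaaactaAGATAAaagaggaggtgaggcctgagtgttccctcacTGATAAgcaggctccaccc
Ermap, chr4:119189996-119190115, reverse: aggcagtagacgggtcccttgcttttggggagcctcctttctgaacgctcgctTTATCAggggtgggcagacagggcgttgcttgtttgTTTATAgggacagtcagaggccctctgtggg
Epor, chr9:21963577-21963696, reverse: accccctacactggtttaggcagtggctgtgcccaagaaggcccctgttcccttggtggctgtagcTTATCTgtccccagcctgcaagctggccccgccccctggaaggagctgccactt
In windows of 300 bases around the start (250 before and 50 after), a GATA match was in 16 of the 25 members found in the RefSeq table (64.0%) and in 21.0% of all 27025 genes there. CCACACCC was in 1 of the 25 (Hbb-bs) and in 4.1% of all genes. TATAAA was in 5 of the 25 and in 15.7% of all genes, and CCAAT in 56.0% and 41.1%. Of the 120 bases shown for Hba-a2, 117 form a run that also occurs before Hba-a1; the longest such run of Hbb-bs and Hbb-bt is 14 bases. A match describes the letters of the window and is no measurement of binding.

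The comparison asked whether the Hgf allele goes with another level of these genes in the cochlea. None of the 32 was called in either direction by edgeR's quasi-likelihood test (adjusted p of 0.966 to 0.999), where the same test called 0.0338% of all 20733 genes. At an unadjusted p under 0.05, 1 of the 32 was lower in knock-in (Gata1), against 1.96% of all genes, and none was higher, against 2.54% (4.5% in both directions). Of the 32, 30 had negative log2 fold changes, against 49.8% of all genes. Their median was -0.12 and the median of all genes was 0.001. The values lay between -0.37 (Trim10) and 0.12 (Hbb-bt), and the outermost bounds of their 95% intervals were folds of 0.589 and 1.48. The groups overlapped for all 32 genes, where 8.72% of all genes had groups that did not overlap. Without knock-in replicate 3, edgeR again called none of the 32, and 30 were negative. Without wild-type replicate 3, which was the highest library for most of these genes, 17 of the 32 were negative. Without wild-type replicate 2, edgeR called none and 12 were at an unadjusted p under 0.05, against 5.87% of all genes in that fit. DESeq2 also called none, with 4 at an unadjusted p under 0.05 (2.41% of all genes), and limma-voom none, with 1 (4.23% of all genes, near its share of the 32). The authors' deposited table lists all 32 with none at an adjusted p under 0.05 and 4 at an unadjusted p under 0.05, namely Gata1, Ank1, Trim10 and Slc4a1.

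**Figure D1:**
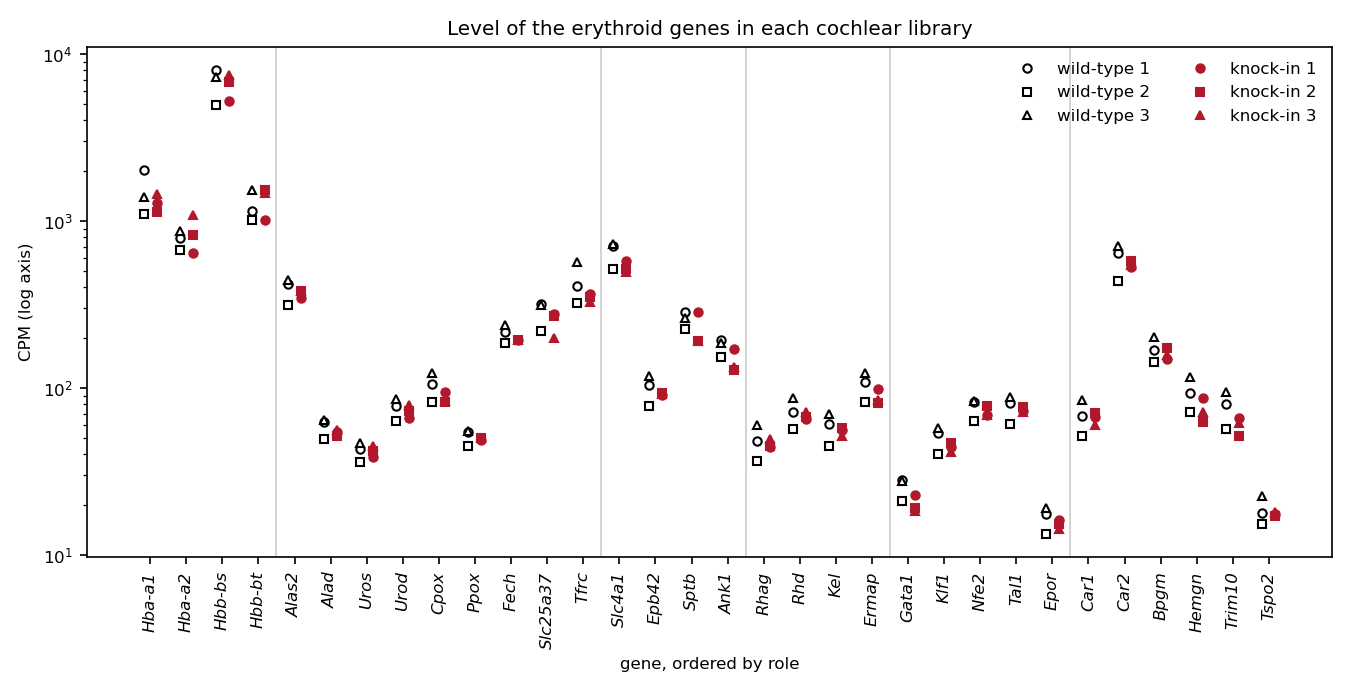
Level of each of the 32 erythroid genes in CPM (log axis) in the 3 wild-type libraries (open symbols) and 3 knock-in libraries (filled symbols), with vertical lines between role groups. The symbols of the 2 groups overlap for every gene, and the open square of wild-type replicate 2 is the lowest symbol for 23 of them.

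The 4 globin genes were the most abundant members. Together they took 0.78% to 1.23% of all gene counts of a library and 67% to 75.6% of the counts of the 32 genes. Per length, in CPM per kilobase of exon (RPKM), the means over 6 libraries were 8613 for Hbb-bs, 1826 for Hbb-bt, 1717 for Hba-a1 and 1219 for Hba-a2. The next member on that scale was Car2 at 236.

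Hbb-bs, a beta globin gene, was at 7995, 4941 and 7246 CPM in wild-type and 5213, 6777 and 7515 CPM in knock-in replicates 1 to 3. Each group held both high and low libraries, and the log2 fold change was -0.05 (SE 0.21). Hbb-bt, the second beta globin gene, was at 1146, 1013 and 1529 CPM in wild-type and 1017, 1534 and 1463 CPM in knock-in. Its log2 fold change was 0.12 (SE 0.2), with 1 low and 2 high libraries in knock-in and the reverse in wild-type. Leaving out 1 library gave 0.001 (without wild-type replicate 2) to 0.31 (without wild-type replicate 3).

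Hba-a1, an alpha globin gene, was at 2012, 1101 and 1391 CPM in wild-type and 1283, 1136 and 1444 CPM in knock-in. Wild-type replicate 1 was apart at the top, and without it the log2 fold change of -0.22 (SE 0.21) became 0.05. Hba-a2, the second alpha gene, was at 796, 673 and 868 CPM in wild-type and 642, 819 and 1082 CPM in knock-in. Of the 32 genes, this was the only one with its highest level in knock-in replicate 3, and without it the log2 fold change of 0.12 (SE 0.19) became -0.09.

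Over each pair, alpha globin summed to 2280 ± 517 CPM in wild-type and 2140 ± 339 CPM in knock-in, and beta globin to 7960 ± 1740 and 7840 ± 1430 CPM (SD, n = 3 per group). The ratio of beta to alpha counts was 3.5 ± 0.333 in wild-type and 3.68 ± 0.517 in knock-in (SD, n = 3 per group). The ratio of all 4 globins to Slc4a1, the membrane anion exchanger gene, was 16.8, 15.1 and 15.2 in wild-type and 14.2, 20 and 23.3 in knock-in. Two-sided exact permutation tests of 6 such measures between groups gave p = 0.4 to 0.9 (adjusted p = 0.84 to 0.9). The smallest p that 3 against 3 allows is 0.1.

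The share of Hba-a1 in alpha globin counts was 71.6%, 62.1% and 61.6% in wild-type and 66.7%, 58.1% and 57.2% in knock-in. The exact 95% binomial interval was 71.3% to 72% for wild-type replicate 1 and 66.3% to 67% for knock-in replicate 1, above those of the other libraries of the same group. The intervals of wild-type replicates 2 and 3 overlapped (61.7% to 62.5% and 61.3% to 61.9%). Those of knock-in replicates 2 and 3 did not (57.7% to 58.5% and 56.8% to 57.6%). Such intervals cover counting error only, and neither the spread between mice nor how shared reads were assigned. The share of Hbb-bs in beta globin counts was 87.5%, 83% and 82.6% in wild-type and 83.7%, 81.5% and 83.7% in knock-in. Wild-type replicate 1 had the highest share of the first copy for both pairs. The groups overlapped for both shares (exact permutation p = 0.5 and 0.6, adjusted p = 0.84).

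**Figure D2:**
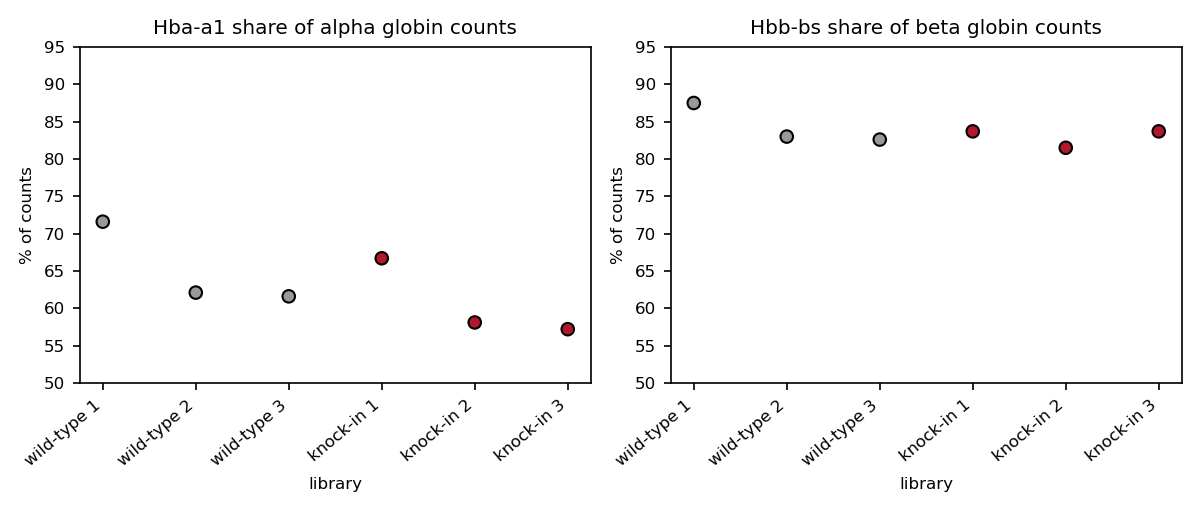
Share of Hba-a1 in alpha globin counts and of Hbb-bs in beta globin counts, in percent on an axis that starts at 50, for each library (grey wild-type, red knock-in), with exact 95% binomial intervals that are smaller than the points. Shares run from 57.2% to 71.6% for Hba-a1 and from 81.5% to 87.5% for Hbb-bs, and the groups overlap.

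Embryonic globins were all but absent. Over the 6 libraries Hbb-bh1 had 7 counts, Hbb-y 12 and Hba-x 13, and none of these passed the filter. They are the globins of the early yolk sac cells. No identifier was matched for Hbb-b1 and Hbb-b2, the symbols of the beta globin genes of other mouse strains.

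Of the 9 genes of heme synthesis and iron supply, all had negative log2 fold changes and none was called; the median was -0.12. Alas2 (chromosome X, 150547375 to 150570638) encodes the erythroid form of the first and rate-limiting enzyme. It was at 421, 312 and 443 CPM in wild-type and 345, 382 and 379 CPM in knock-in, with all 3 knock-in libraries inside the wild-type range. The log2 fold change was -0.09 (SE 0.14).

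Tfrc, the transferrin receptor gene, was at 411, 324 and 569 CPM in wild-type and 367, 353 and 329 CPM in knock-in. Its log2 fold change of -0.31 (SE 0.19) was -0.07 without wild-type replicate 3, the highest library. Slc25a37, which encodes mitoferrin, the importer of iron into erythroid mitochondria, was at 320, 220 and 316 CPM in wild-type and 277, 269 and 200.1 CPM in knock-in (log2 fold change -0.2, SE 0.18). Its value was -0.06 when knock-in replicate 3 was left out and -0.35 when wild-type replicate 2 was. Knock-in replicate 3 was its lowest library, although that library was the second highest for Hbb-bs.

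Cpox, which encodes coproporphyrinogen oxidase, was at 106, 82.1 and 123 CPM in wild-type and 95.02, 82.99 and 83.7 CPM in knock-in (log2 fold change -0.25, SE 0.14). It was at -0.39 without wild-type replicate 2 and at -0.11 without wild-type replicate 3. The other enzyme genes had values nearer to 0. These are Alad (-0.12), Uros (-0.004), Urod (-0.06), Ppox (-0.06) and Fech, the gene of ferrochelatase, which inserts iron into protoporphyrin to form heme (-0.14). Fech was within 192.9 to 194.5 CPM in the 3 knock-in libraries and between 185.9 and 237.1 CPM in wild-type. Exons of Ppox and Alas2 overlap exons of B4galt3 and Apex2 on the opposite strand over 17.5% and 12.9% of their length, so some of their reads may belong to those genes. Cpox, Slc25a37, Ank1 and Sptb overlap any single other gene over at most 6.4%, and the other 26 members over none of their exons.

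The 4 genes of the membrane skeleton and its anchors all had negative values, with a median of -0.26, and none was called. Slc4a1 (chromosome 11, 102348824 to 102366203) encodes band 3, the anion exchanger that also anchors the skeleton. It was at 711, 513 and 727 CPM in wild-type and 574, 514 and 494 CPM in knock-in. Wild-type replicate 2 lay among the knock-in libraries, and the log2 fold change was -0.3 (SE 0.15; 95% interval -0.64 to 0.04).

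Ank1, the ankyrin gene that ties band 3 to spectrin, was at 195, 153 and 186 CPM in wild-type and 170, 129 and 133 CPM in knock-in (log2 fold change -0.3, SE 0.14). Sptb, the beta spectrin gene, was at 286, 225 and 263 CPM in wild-type and 287, 191 and 190.4 CPM in knock-in (log2 fold change -0.21, SE 0.17), and its value was -0.43 without knock-in replicate 1 and -0.11 without knock-in replicate 3. For both genes knock-in replicate 1 was above the other 2 knock-in libraries. Epb42, the protein 4.2 gene, was at 92.0 ± 1.29 CPM in knock-in and 100.5 ± 20.6 CPM in wild-type (SD, n = 3 per group).

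Of 12 further red cell membrane genes, none was called, 11 were negative and the median was -0.23. A two-sided edgeR test gave an unadjusted p of 0.025 and an adjusted p of 0.966 for Add2, the beta adducin gene (log2 fold change -0.29, SE 0.11). Add2 was at 64.6, 58.3 and 73.7 CPM in wild-type and 57.0, 51.6 and 52.1 CPM in knock-in, which do not overlap.

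The 4 genes of surface antigens and related membrane proteins all had negative values (median -0.09), and none was called. Rhd, of the Rh complex, was at 71.7, 56.5 and 86.7 CPM in wild-type and 65.2, 67.0 and 71.4 CPM in knock-in (log2 fold change -0.08, SE 0.14). Kel, the Kell antigen gene, was at 61.3, 45.2 and 69.8 CPM in wild-type and 56.0, 58.0 and 51.5 CPM in knock-in (-0.09, SE 0.15). For both, the knock-in libraries lay between the lowest and the highest wild-type library. Ermap, an erythroid membrane protein gene, was at 108, 82.5 and 124 CPM in wild-type and 98.6, 81.4 and 84.7 CPM in knock-in (-0.25, SE 0.15). Its value was -0.4 without wild-type replicate 2 and -0.12 without wild-type replicate 3. Rhag, the Rh-associated glycoprotein gene, had -0.07.

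Gata1 (chromosome X, 7959260 to 7978071), the master regulator of erythroid genes, had the smallest p of the 32; all 5 genes of its role had negative values (median -0.13). It was at 28.2, 21.1 and 27.7 CPM in wild-type and 22.9, 19.0 and 18.5 CPM in knock-in. Wild-type replicate 2 lay below knock-in replicate 1, so the groups overlapped. The log2 fold change was -0.35 (SE 0.14; edgeR unadjusted p = 0.0354, adjusted p = 0.966).

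Klf1 (chromosome 8, 84901928 to 84905291), a regulator of beta globin, was at 53.5, 40.3 and 57.5 CPM in wild-type and 44.5, 47.0 and 41.3 CPM in knock-in (log2 fold change -0.19, SE 0.14). Nfe2, a regulator of globin and platelet genes, was at 82.2, 63.2 and 83.3 CPM in wild-type and 69.1, 78.1 and 68.7 CPM in knock-in (-0.08, SE 0.12). Tal1, a partner of GATA1, was at 81.4, 61.0 and 88.0 CPM in wild-type and 72.6, 76.9 and 71.6 CPM in knock-in (-0.06, SE 0.13). In all 3 the lowest and the highest library were both wild-type. Without wild-type replicate 2 the values of Klf1 and Nfe2 were -0.33 and -0.2, and without wild-type replicate 3 they were -0.09 and -0.02. Epor, the receptor for erythropoietin, was at 13.4 to 19.1 CPM (-0.13), and Epo, the hormone gene, had no count in any library. Of 14 tested genes in a list of other erythroid regulators, none was called and 9 were negative (median -0.03); Gfi1b, a repressor, had -0.31 and Gata2, the factor of early progenitors, 0.23.

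The 6 remaining members all had negative values (median -0.11), and none was called. Trim10 (chromosome 17, 36869574 to 36877833), known for a role in terminal erythroid differentiation, had the lowest log2 fold change of the 32, -0.37 (SE 0.18). It was at 80.2, 56.7 and 94.8 CPM in wild-type and 65.9, 51.7 and 61.8 CPM in knock-in. Hemgn, an erythroid nuclear protein gene, was at 93.3, 71.4 and 116 CPM in wild-type and 86.9, 62.7 and 71.8 CPM in knock-in (-0.34, SE 0.18). For both genes wild-type replicate 3 was the highest library, and without it the values were -0.2 and -0.16.

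Car2, the carbonic anhydrase gene of red cells that is also used by osteoclasts and by other tissues, was at 645, 436 and 706 CPM in wild-type and 530, 575 and 542 CPM in knock-in (-0.12, SE 0.17). Bpgm, whose enzyme makes the phosphate ester that loosens oxygen from hemoglobin, was at 170, 143 and 201.1 CPM in wild-type and 149, 173 and 159 CPM in knock-in (-0.1, SE 0.13). Both wild-type ranges enclosed the knock-in values. Car1 had -0.04 and Tspo2, an erythroid membrane protein gene, -0.08. In a list of 15 other genes of red cell enzymes and maturation, none was called and 13 were negative (median -0.11). Of 15 other heme and iron genes, 12 were negative and none was called (median -0.1). Alas1, the enzyme form of non-erythroid tissue, had 0.24 and Tfr2, a second transferrin receptor, -0.29.

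**Figure D3:**
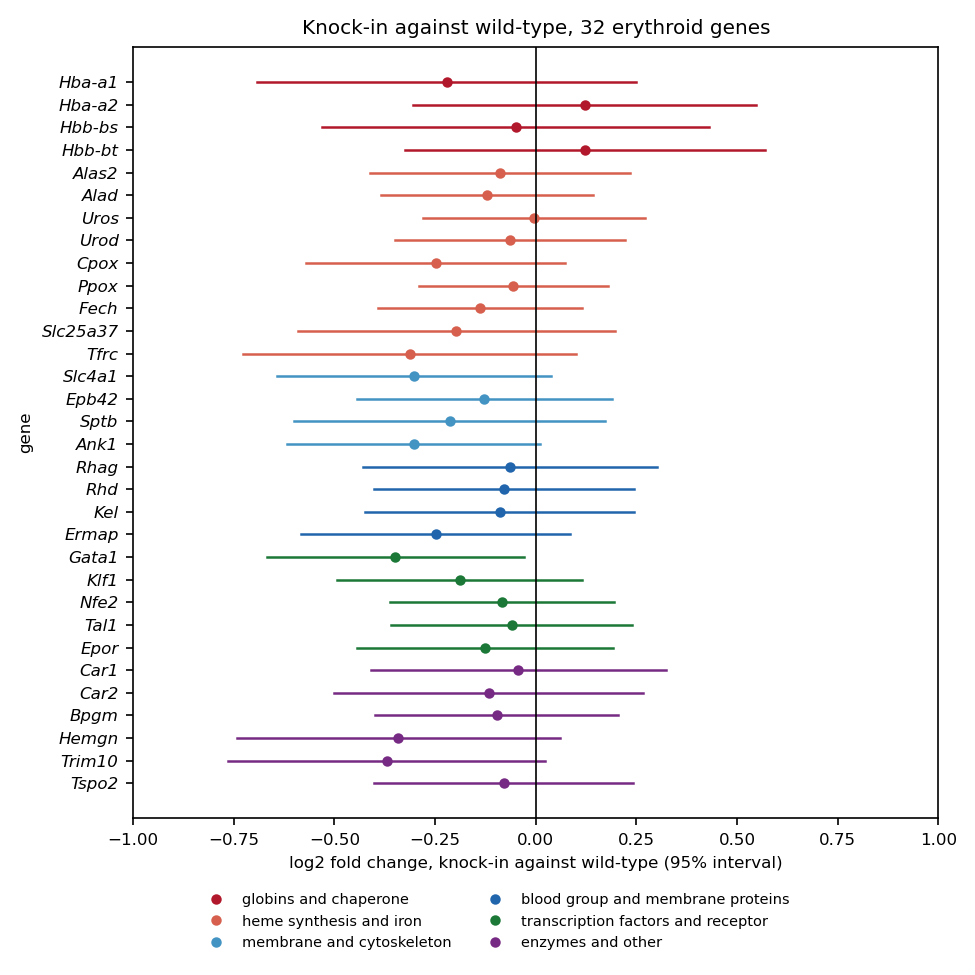
Log2 fold change of knock-in against wild-type with its 95% interval from edgeR for the 32 erythroid genes, coloured by role. Points run from -0.37 to 0.12, and Gata1 is the only gene whose interval does not include 0 before adjustment.

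The order of the libraries was much the same from gene to gene. Wild-type replicate 2 was the lowest of the 6 libraries for 23 of the 32 genes, where it was the lowest for 15.4% of all genes tested. Wild-type replicate 3 was the highest for 24 of the 32, against 14.5% of all genes, and wild-type replicate 1 for 5, against 19.4%. Relative to each gene's mean over 6 libraries, the median deviation of the 32 genes on the log2 scale was 0.15, -0.23 and 0.28 in wild-type replicates 1, 2 and 3, and -0.06, -0.04 and -0.06 in knock-in. All 32 genes were below their mean in wild-type replicate 2 and above it in wild-type replicate 3.

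The standard deviation on the log2 scale was larger in wild-type than in knock-in for 28 of the 32 genes, with medians of 0.28 and 0.11. Over all genes it was larger in wild-type for 47.3%, with medians of 0.15 and 0.16. For 22 of the 32 genes both the lowest and the highest library were wild-type, against 18.7% of all genes. The ratio of the highest to the lowest library was between 1.23 (Ppox) and 1.85 (Hemgn). The members share libraries and, in part, cells, so these counts do not come from independent genes.

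**Figure D4:**
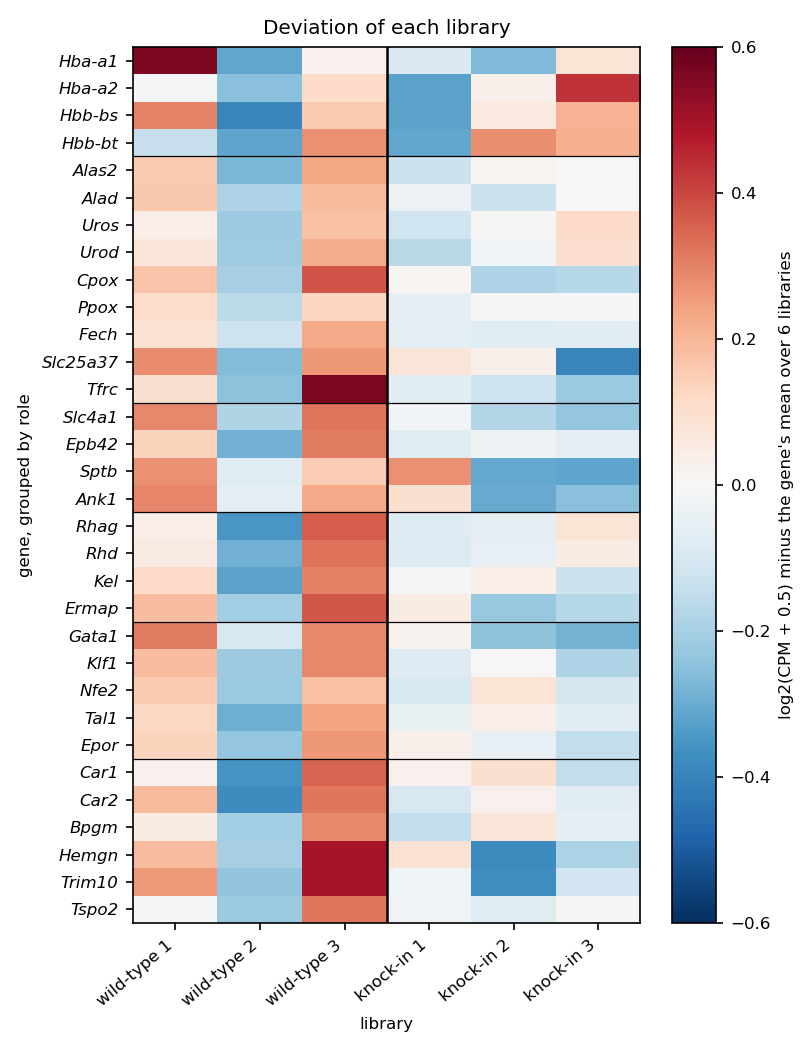
Deviation of each library from a gene's mean over 6 libraries, on the log2(CPM + 0.5) scale, for the 32 erythroid genes grouped by role (red above, blue below the mean). The column of wild-type replicate 2 is blue and that of wild-type replicate 3 red for all 32 genes.

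Alas2 served as the reference for how the members went together across libraries. Over the 6 libraries, Pearson's r of log2 CPM with Alas2 was positive for all 31 other members, between 0.22 (Sptb) and 0.99 (Ppox) with a median of 0.83, and Spearman's rho between 0.09 and 1 with a median of 0.83. An r of at least 0.8 was found for 18 of the 31 and for 3.3% of the 20701 genes that are not members, whose median r was -0.02. Car2 (0.98), Epb42 (0.96) and Tal1 (0.96) followed Alas2 most closely after Ppox, and Sptb, Ank1 (0.41), Hba-a2 (0.55) and Gata1 (0.57) least. Wild-type replicates 2 and 3 lay farthest from the median of Alas2. Without them r was still positive for all 31, with a lowest value of 0.009 (Sptb), but the median was 0.55 and 7 reached 0.8. Leaving out the extremes of Alas2 narrows its range, so a lower r follows in part from that choice. No share over all genes was computed for this subset. These correlations are descriptions over libraries of both genotypes.

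The 2 libraries with abundant Xist were 1 of each group. Among the 4 libraries with low Xist, the mean of knock-in was below that of wild-type for all 32 genes, with a median difference of -0.25 on the log2 scale, against 50.4% of all genes and a median of -0.002. In 27 of the 32 both knock-in libraries lay below both wild-type libraries, against 17.1% of all genes. The split by Xist puts wild-type replicate 2, the lowest library for 23 of the 32 genes, among those with high Xist. That alone tends to draw knock-in below wild-type at low Xist and above it at high Xist. The counts in each stratum thus give no separate support for a difference. Between the 2 libraries with high Xist, knock-in was above wild-type for 27 of the 32 genes, with a median difference of 0.17, against 50.2% of all genes and a median of 0.001. That difference has no replicate, and its knock-in library is replicate 3, whose Neo count was at the wild-type level. A test of this difference between the strata (interaction term in edgeR, 2 residual degrees of freedom) took each gene's spread from the 4 libraries with low Xist. edgeR moderated that spread toward a trend over all genes. The test assumed that the 2 single libraries vary like the 4. It called none of the 32 (adjusted p of at least 0.962; 12 at an unadjusted p under 0.05, against 4.81% of all genes). In edgeR's fit of the 4 libraries alone none of the 32 was called (adjusted p of at least 0.898; 12 at an unadjusted p under 0.05, against 5.17% of all genes). Xist was fitted in the interaction term and, in another fit, as a covariate, where none of the 32 was called between genotypes. Whether Xist by itself, the age of the mice or the dissection had a part in these values was not tested. The split by Xist was chosen after the values were seen.

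Lists of genes of other marrow and blood lineages and of proliferation shared the library order of the members in part. The summed level of 28 members other than globins was between 3480 and 5076 CPM in wild-type and 3709 and 4015 CPM in knock-in. The 10 neutrophil genes summed to 9575 to 13400 CPM in wild-type, lowest in replicate 2, and to 10080 to 12380 CPM in knock-in, with all 10 detected. The 6 proliferation genes summed to 1166 to 1833 CPM in wild-type and 1234 to 1712 CPM in knock-in, and wild-type replicate 2 was the lowest library for 5 of the 6. Mki67 made up most of this sum, with a mean of 940 CPM over the 6 libraries. The 10 B lineage genes, all detected, summed to 255 CPM in wild-type replicate 2 and 230 CPM in knock-in replicate 3, and to between 374 and 500.2 CPM in the other 4 libraries. The 7 megakaryocyte and platelet genes were between 395.7 and 580.6 CPM, highest in knock-in replicate 2. The 10 cochlear markers summed to 2689 to 3132 CPM in wild-type and 2882 to 3367 CPM in knock-in. Coch made up most of this sum, at 2375, 2762 and 2704 CPM in wild-type and 2588, 3063 and 2988 CPM in knock-in. The next highest of the 10, Otos, had a mean of 129 CPM over the 6 libraries.

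None of the genes in these 5 lists was called; 2 of 10 neutrophil and 3 of 10 cochlear genes were at an unadjusted p under 0.05, against 4.5% of all genes. Medians of the log2 fold changes were -0.12 for neutrophil, -0.24 for B lineage, -0.01 for megakaryocyte and platelet, -0.13 for proliferation and -0.01 for cochlear genes. The 2 with the smallest p in each were Ngp (-0.34) and Lcn2 (-0.32), neutrophil granule genes, Rag1 (-0.46) and Vpreb3 (-0.36) of the B lineage, Pf4 (0.26) and Treml1 (-0.08) of platelets, Birc5 (-0.3) and Rrm2 (-0.27) of dividing cells, and Otos (-0.51) and Otoa (0.26) of the cochlea. How far the amount of marrow or blood in a sample set the level of the members was not tested.

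**Figure D5:**
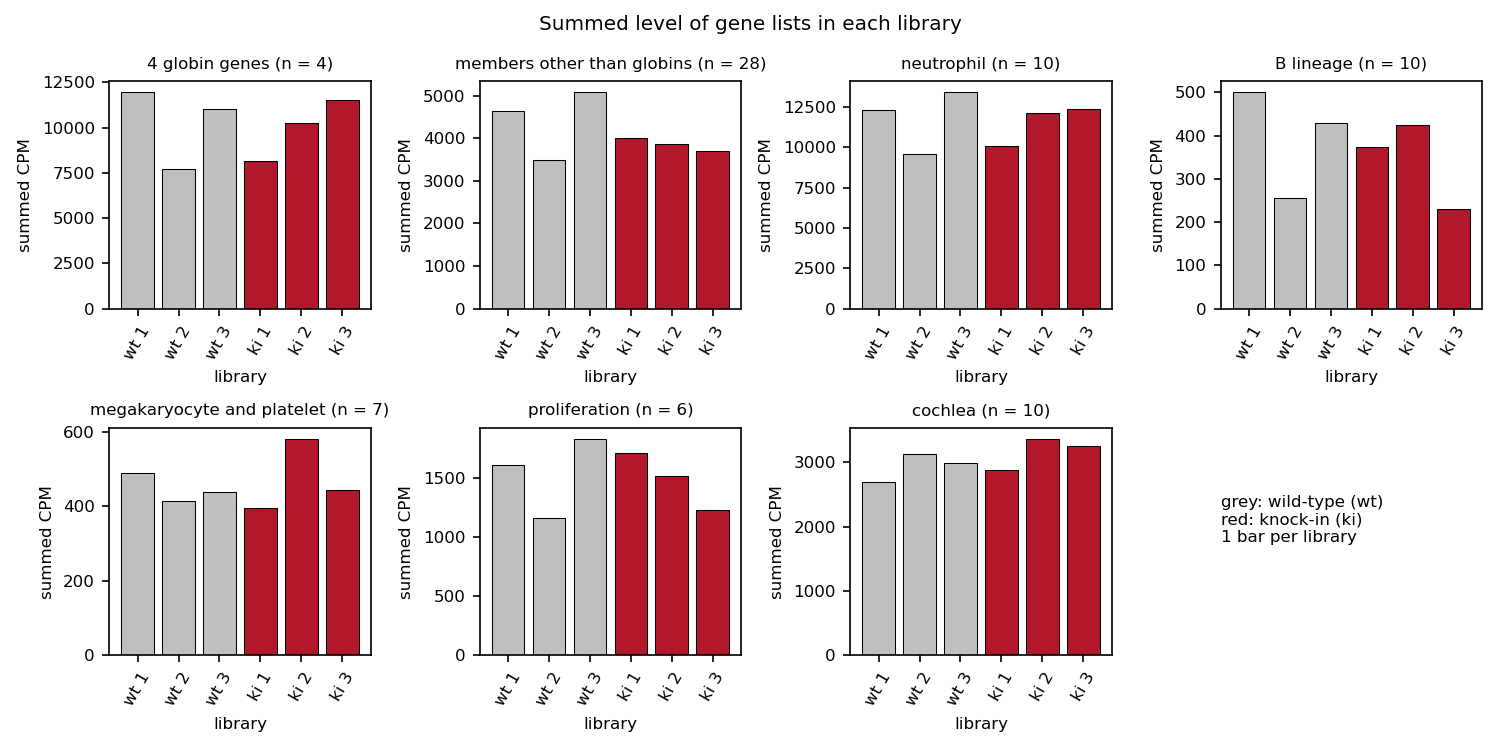
Summed CPM per library (bars from 0; grey wild-type, red knock-in) of the 4 globins, the other 28 members, and lists of other blood lineages, proliferation and cochlear markers, each panel on its own scale. Wild-type replicate 2 has the lowest sum for both sets of members, the neutrophil list and the proliferation list, and knock-in replicate 3 has the lowest for the B lineage list. The cochlear sum is mostly Coch and the proliferation sum mostly Mki67.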

How the data were processed

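Reads were mapped to GRCm38 (GENCODE M11) with STAR 2.5.2, as the labels' design text and the submitters' processing notes give it; no source used here names the counter or says whether it used strand. The authors deposited unnormalized whole-number counts per gene. Their deposited DESeq2 table holds, for each gene, a mean normalized signal, log2 fold changes, a test score and p-values. Deposited regularized log values were not used.

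Of 48733 rows, 24 spike-in and transgene rows, with 0.00151% to 0.0045% of a library's counts, were set aside before scaling. Symbols came from GENCODE M21 by identifier. Counts were filtered with filterByExpr and tested with edgeR 4.0.16 in R 4.3.3 (TMM, quasi-likelihood F test, group as the only term, Benjamini-Hochberg over 20733 genes, threshold 0.05). Standard errors were taken from the log2 fold change and its F value (fold change over root F). CPM use TMM-scaled library sizes and RPKM the union of M21 exons; log2 levels use CPM + 0.5. On simulated counts (20494 genes tested), 38 of 50 genes raised 2-fold, 28 of 50 lowered to a fold of 0.5 and 15 of 20533 unchanged genes were called. Changes of the size seen here are smaller than those simulated.

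The members and lists were chosen with earlier results of these data known. Members are described in every library where they had the 3 highest mean CPM or the 2 smallest p of their role. Alternatives were RLE and upper-quartile scaling, no globins, other filters, DESeq2 1.42.0, limma-voom (limma 3.58.1), an Xist covariate, each library left out in turn and a threshold of 0.1. Replicate numbers are in accession order and pair no samples. P-values of edgeR set a difference against the spread between these mice, which edgeR moderates toward a trend over all genes. The exact permutation p-values use no such moderation. The binomial intervals cover counting error alone, and those of edgeR also the spread between mice. Some genes of the lists are not reported here by name.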

Additional observations from a re-analysis of the deposited data

How the results depend on the processing

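None of the 32 members, and no gene of the 10 other lists, was called under any of the 16 alternatives. At an unadjusted p under 0.05, DESeq2 gave 4 of the 32 (2.41% of all genes), limma-voom 1 (4.23%) and the Xist covariate 3 (6.28%). The fit without wild-type replicate 2 gave 12 (5.87%) and that without knock-in replicate 1 gave 4 (9.04%). The number of negative log2 fold changes was 17 to 30 when a library was left out and 17 without wild-type replicate 3; it was 29 to 32 of 32 otherwise, and 28 of 28 with the globins left out. The median was -0.24 to -0.01 when a library was left out; it was -0.25 to -0.09 otherwise. Without the library labelled knock-in replicate 3, 30 of the 32 were negative.

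Leaving out 1 library turned the direction of 9 of the members described in every library. The ranges over the 6 fits were -0.402 to 0.046 for Hba-a1, -0.094 to 0.291 for Hba-a2, -0.229 to 0.092 for Hbb-bs, -0.229 to 0.006 for Alas2, -0.224 to 0.079 for Rhd, -0.248 to 0.05 for Kel, -0.202 to 0.047 for Tal1, -0.299 to 0.021 for Car2 and -0.212 to 0.031 for Bpgm. In the 4 libraries with low Xist, chosen after seeing the data, Hba-a2 was at -0.19 and Hbb-bt at -0.066; the cause was not tested. No paired analysis was possible because the labels give no replicate numbers that groups share.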
